A study of Mus musculus with 8 samples.

Results

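The genes described here are 34 mouse genes known to be switched on by type I interferon, followed across dendritic cells sorted from the thymus. They were chosen by symbol: a probe belonged to the set where its accession mapped to one of the 34 symbols. Probes were matched for 31 of the 34 genes, among 24148 genes or accessions tested on the arrays; Mx1, Mx2 and Ddx60 had no match and are not analysed here. Surface Sirpa, an inhibitory receptor carried by some dendritic cells, and maturation status together defined 4 groups: Sirpa-positive mature (arrays 1 and 6, by the number in the title), Sirpa-positive immature (arrays 3 and 5), Sirpa-negative mature (arrays 2 and 8) and Sirpa-negative immature (arrays 4 and 7). Each group was measured on 2 Agilent arrays of 1 colour. The series concerns CD40, dendritic cell maturation and regulatory T cells, and its design set the 4 subsets against each other. The sources used here name no strain, genotype, age, treatment or further sort marker, and do not say if both arrays of a group stem from different mice or sorts. A p-value below thus reflects the spread between these arrays alone, which may be technical.

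Type I interferons bind a receptor built from Ifnar1 and Ifnar2, whose kinases Jak1 and Tyk2 phosphorylate Stat2. With Irf9 it forms part of a complex that binds a short DNA element, the interferon-stimulated response element, before many antiviral genes. The induced genes encode proteins that sense viral nucleic acid, block translation or entry, or feed back on the pathway, and type I interferon is made in the thymus in the absence of infection.

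The DNA before these genes is shown because several of the genes that differed most between the groups carry the element's letters there. RefSeq promoter windows (GRCm38.p6) of 300 bases, with 250 before and 50 after the start, were held for 26 of the 34 genes. The letters searched were 2 copies of GAAA on 1 strand with any 2 bases between them, on both strands and with overlapping matches counted. They occurred in 14 of the 26 genes (53.8%), against 1079 of 27025 genes with a window (3.99%). Of the genes measured here, 15 passed the test in at least 1 comparison and had a window, and 11 of these held a match. Of the 10 with a window that passed in none, 2 held a match. This split was made with the calls known and was not tested. The 4 that passed and had a window with no match were Oasl1, Oasl2, Herc6 and Samd9l. Rtp4 and Oas2 passed but had no window. Among immature cells Oasl2 was 28.6-fold and Rtp4 53.0-fold higher in the Sirpa-positive subset, so large differences also occurred without a match found. The letters TTCNNNGAA, the core of the gamma-activated site, occurred in 6 of the 26 genes (23.1%), against 9.55% of all genes, and these matches were not read further. A match is a run of letters and not a shown binding site, and a window with no match says only that the letters are not in that window. The 250 bases before the start follow for 5 genes, read 5′ to 3′ on the gene's own strand with each match in capitals. All 5 held a match, so these sequences cannot show whether a match goes with a large difference. The first 3 genes belong to 1 family and stood among the largest differences between the subsets, Rsad2 passed between subsets among immature and not among mature cells, and Isg15 passed in maturation and in neither subset comparison.
Ifit1 (chr19:34640639-34640888, plus strand): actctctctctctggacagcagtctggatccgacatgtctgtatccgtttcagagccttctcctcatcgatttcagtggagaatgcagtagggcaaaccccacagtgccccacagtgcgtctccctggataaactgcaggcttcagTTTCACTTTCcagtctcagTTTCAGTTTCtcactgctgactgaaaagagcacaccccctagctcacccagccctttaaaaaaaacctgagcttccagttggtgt
Ifit3 (chr19:34583279-34583528, plus strand): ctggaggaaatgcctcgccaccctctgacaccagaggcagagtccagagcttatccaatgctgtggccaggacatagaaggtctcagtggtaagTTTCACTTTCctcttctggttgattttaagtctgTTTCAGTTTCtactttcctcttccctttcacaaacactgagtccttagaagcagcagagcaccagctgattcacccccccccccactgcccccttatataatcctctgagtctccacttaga
Ifit3b (chr19:34607707-34607956, plus strand): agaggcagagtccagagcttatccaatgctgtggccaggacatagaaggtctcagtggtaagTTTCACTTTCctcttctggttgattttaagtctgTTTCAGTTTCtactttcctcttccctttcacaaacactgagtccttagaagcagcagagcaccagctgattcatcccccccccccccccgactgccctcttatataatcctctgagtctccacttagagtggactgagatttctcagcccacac
Rsad2 (chr12:26456453-26456702, minus strand): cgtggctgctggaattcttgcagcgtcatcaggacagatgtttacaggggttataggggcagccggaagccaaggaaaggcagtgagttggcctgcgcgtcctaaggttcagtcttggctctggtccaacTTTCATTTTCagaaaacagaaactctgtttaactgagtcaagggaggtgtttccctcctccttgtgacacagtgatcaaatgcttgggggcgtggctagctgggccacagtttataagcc
Isg15 (chr4:156200819-156201068, minus strand): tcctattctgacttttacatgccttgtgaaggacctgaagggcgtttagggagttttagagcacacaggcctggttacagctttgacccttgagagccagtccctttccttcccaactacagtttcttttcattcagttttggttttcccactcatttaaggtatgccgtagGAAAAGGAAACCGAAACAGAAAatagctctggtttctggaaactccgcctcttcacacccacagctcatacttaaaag

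Ifit1, Ifit3 and Ifit3b each held 2 matches that read TTTCACTTTC and TTTCAGTTTC. Those of Ifit3 began 156 and 122 bases before the start, those of Ifit3b 188 and 154 and those of Ifit1 104 and 85. With the windows of Ifit3 and Ifit3b shifted by 32 bases and compared base by base without gaps, 201 of 268 bases were identical (75%). Past a run of C of unequal length, the 2 sequences share a further stretch out of register. The value thus understates their likeness. Isg15 held 3 overlapping matches in a single run, beginning 78, 72 and 66 bases before the start, and Rsad2 held 1 match 120 bases before it.

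Across the series, between 52.9% and 65.5% of spots per array were well above background and no spot (0) was saturated. Arrays of the same group correlated across genes at 0.979 to 0.987, and arrays of different groups at 0.908 to 0.963. Each of the 2 rows of the slide held 1 array of every group. The share of spots well above background differed by row, with 61.9% to 65.5% in row 1 and 52.9% to 57.9% in row 2. Sirpa followed its label, with a 28.3-fold subset difference among mature cells and a 114-fold one among immature cells. Within the Sirpa-negative subset Sirpa itself rose 2.85-fold with maturation in the limma fit (1.51 ± 0.22, adjusted p = 0.00555). All 14 dendritic cell markers were detected in at least 1 group, with Xcr1 not above background in Sirpa-positive mature cells and Cd209a not above it in Sirpa-negative mature cells. In sorted bulk samples, fewer cells of a type and less RNA per cell cannot be told apart, and this applies to every level below.

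Levels are given as multiples of the array's own 75th percentile of processed signal and are comparable between arrays for 1 probe, not between probes. The 31 measured genes had 42 probes, and 29 of the 31 probes that stood for a gene were well above background on all 8 arrays. The exceptions were Oas2 (6 arrays) and Herc6, which had no value on Sirpa-negative immature array 4. Differences are on the log2 scale with the standard error (SE) of the limma fit, n = 2 arrays per group, and p-values are adjusted over all 24148 features by the Benjamini-Hochberg method with a threshold of 0.05. The median level of the 31 genes was 7.59 and 7.12 on the Sirpa-positive mature arrays, 9.08 and 9.06 on the Sirpa-positive immature arrays, 6.64 and 4.74 on the Sirpa-negative mature arrays, and 4.33 and 4.14 on the Sirpa-negative immature arrays. The 2 Sirpa-negative immature arrays were the lowest of the 8 by this median and the 2 Sirpa-positive immature arrays the highest.

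**Figure D1:**
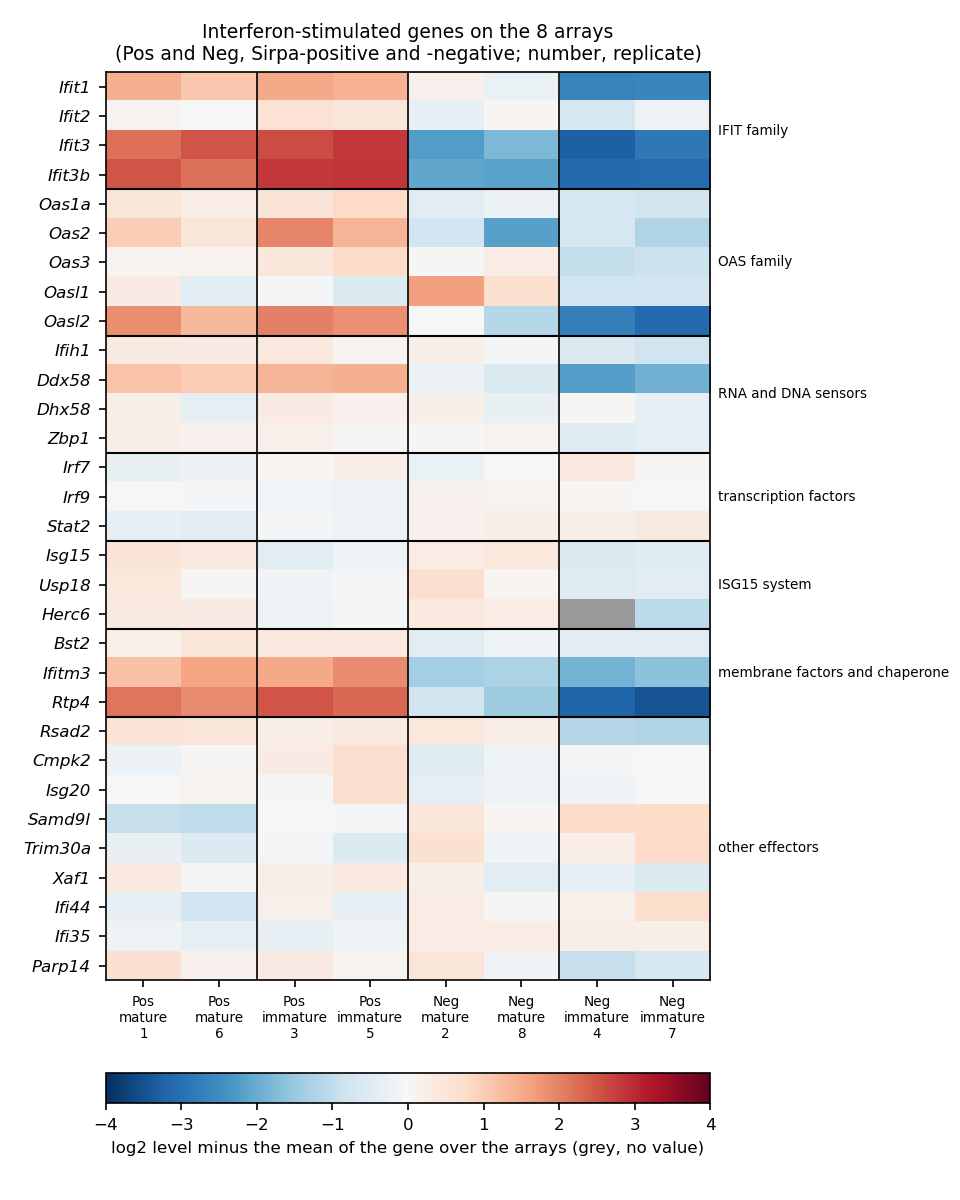
Log2 level of each measured interferon-stimulated gene (rows, grouped by role) on each of the 8 arrays (columns), minus the gene's mean over the arrays; red is higher, blue lower, and grey marks the missing value of Herc6. The IFIT genes other than Ifit2, and Oasl2, Ddx58, Ifitm3 and Rtp4, are red on the 4 Sirpa-positive arrays and darkest blue on the Sirpa-negative immature arrays.

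The IFIT proteins bind viral RNA and hinder its translation. Ifit1, which recognises RNA without the host's cap marks, stood at 2.56 and 2.04 in mature and 2.75 and 2.54 in immature Sirpa-positive cells, and at 1.08 and 0.794 in mature and 0.151 and 0.156 in immature Sirpa-negative cells. Its mature and immature arrays separated in the Sirpa-negative subset and overlapped in the Sirpa-positive subset. The rise with maturation in Sirpa-negative cells was 2.59 ± 0.23, or 6.04-fold (adjusted p = 0.000936). The subset difference was 1.30 ± 0.23 among mature cells (2.47-fold, adjusted p = 0.0204) and 4.11 ± 0.23 among immature cells (17.2-fold, adjusted p = 8e-05). With normexp background correction and quantile normalization the rise was 1.49 and the immature subset difference 2.82.

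Ifit3, a partner of Ifit1, stood at 38.7 and 48.1 in mature and 52.0 and 60.5 in immature Sirpa-positive cells, against 1.81 and 2.43 in mature and 0.879 and 1.16 in immature Sirpa-negative cells. Its close copy Ifit3b stood at 7.47 and 6.04 in mature and 9.44 and 9.57 in immature Sirpa-positive cells, against 0.312 and 0.300 in mature and 0.151 and 0.155 in immature Sirpa-negative cells. In both genes every Sirpa-positive array lay far above every Sirpa-negative one. Ifit3 was 20.6-fold higher in the Sirpa-positive than in the Sirpa-negative subset among mature cells (4.36 ± 0.26, adjusted p = 0.000169) and 55.5-fold higher among immature cells (5.79 ± 0.26, adjusted p = 3.43e-05). Ifit3b was 21.9-fold higher among mature cells (4.45 ± 0.20, adjusted p = 8.67e-05) and 62.0-fold higher among immature cells (5.95 ± 0.20, adjusted p = 2.28e-05), the largest difference of the set. In Sirpa-negative maturation Ifit3 rose by 1.05 ± 0.26 (adjusted p = 0.0319) and Ifit3b by 0.998 ± 0.199 (adjusted p = 0.0155). The 2 genes are near copies, so each probe may also take up RNA of the other, and they are not counted as independent evidence. A second Ifit3b probe gave -0.90 ± 0.97 in Sirpa-negative maturation, and the mean of both probes moved that rise to 0.05 (adjusted p = 0.965) and the mature subset difference to 5.13. In Sirpa-negative cells that second probe was not well above background on mature arrays 2 and 8 (0.0530 and 0.0453) or immature array 7 (0.0263). It stood at 0.319 on immature array 4, so its negative value rests on that array. With normexp background correction and quantile normalization the rise was 0.42 (adjusted p = 0.0873) and the subset difference 3.595 among mature and 4.48 among immature cells.

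Ifit2, the remaining member of the family and linked to cell death, ranged from 1.77 to 4.26 over the 8 arrays. It passed in no comparison, with a subset difference of 0.95 ± 0.25 among immature cells (adjusted p = 0.0524).

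OAS enzymes make oligoadenylates, an antiviral signal, when they meet double-stranded RNA. Oas1a stood at 22.3 and 19.7 in mature and 23.0 and 27.9 in immature Sirpa-positive cells, against 11.9 and 13.7 in mature and 9.78 and 9.73 in immature Sirpa-negative cells. Oas3 stood at 8.88 and 9.06 in mature and 11.1 and 14 in immature Sirpa-positive cells, against 8.40 and 10.1 in mature and 4.22 and 4.51 in immature Sirpa-negative cells. Among mature cells the Oas3 arrays of the 2 subsets overlapped, and among immature cells they did not. Oas1a was 2.59-fold higher in immature Sirpa-positive than in immature Sirpa-negative cells (1.38 ± 0.21, adjusted p = 0.00534) and Oas3 2.86-fold higher (1.52 ± 0.21, adjusted p = 0.00395). Oas3 also rose 2.11-fold with maturation in Sirpa-negative cells (1.08 ± 0.21, adjusted p = 0.0155).

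Oas2 was dim, at 0.364 and 0.262 in mature and 0.726 and 0.482 in immature Sirpa-positive cells, against 0.109 and 0.0414 in mature and 0.117 and 0.0814 in immature Sirpa-negative cells. One array of each Sirpa-negative group was not well above background. Its subset difference was 2.20 ± 0.47 among mature cells (adjusted p = 0.0425) and 2.60 ± 0.47 among immature cells (adjusted p = 0.0124), and over the alternatives these values ran from 0.77 to 2.90 and from 1.26 to 2.90.

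Of the OAS-like genes, Oasl2 stood at 16.4 and 10.97 in mature and 18.2 and 15.9 in immature Sirpa-positive cells, against 4.44 and 2.04 in mature and 0.678 and 0.523 in immature Sirpa-negative cells. Oasl1, which in mice restrains translation of Irf7, stood at 2.66 and 1.55 in mature and 2.10 and 1.48 in immature Sirpa-positive cells, against 6.64 and 3.33 in mature and 1.24 and 1.26 in immature Sirpa-negative cells. Here Oasl1 departed from the others, since its highest levels were those of Sirpa-negative mature cells. With maturation in the Sirpa-negative subset, Oasl2 rose 5.05-fold (2.34 ± 0.39, adjusted p = 0.00885) and Oasl1 3.76-fold (1.91 ± 0.40, adjusted p = 0.0191). Oasl2 was also 4.45-fold higher in the Sirpa-positive than in the Sirpa-negative subset among mature cells (2.16 ± 0.39, adjusted p = 0.0222) and 28.6-fold higher among immature cells (4.84 ± 0.39, adjusted p = 0.000359), whereas Oasl1 passed in neither subset comparison (mature -1.21 ± 0.40, adjusted p = 0.168).

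Among the sensors, Ddx58 (RIG-I, which detects uncapped viral RNA) stood at 7.41 and 6.91 in mature and 8.64 and 9.06 in immature Sirpa-positive cells, against 2.88 and 2.28 in mature and 0.742 and 0.896 in immature Sirpa-negative cells. Ifih1 (MDA5, which detects long double-stranded RNA) stood at 6.54 and 6.36 in mature and 6.82 and 5.43 in immature Sirpa-positive cells, against 5.91 and 4.76 in mature and 3.37 and 2.90 in immature Sirpa-negative cells. The groups of Ddx58 did not overlap in any of the 4 comparisons. Ddx58 rose 3.15-fold with maturation in Sirpa-negative cells (1.65 ± 0.21, adjusted p = 0.00332), and it was 2.79-fold higher in mature Sirpa-positive than in mature Sirpa-negative cells (1.48 ± 0.21, adjusted p = 0.00849) and 10.9-fold higher in immature cells (3.44 ± 0.21, adjusted p = 0.000111). Ifih1 passed only in the immature subset comparison, at 1.95-fold (0.96 ± 0.22, adjusted p = 0.0328), with 0.76 ± 0.22 in Sirpa-negative maturation (adjusted p = 0.0582). Dhx58 (LGP2, a regulator of the other RNA sensors) and Zbp1 (a sensor of Z-form nucleic acid) passed in none, with differences between -0.33 and 0.56 in the 4 comparisons.

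The transcription factors of the pathway passed in no comparison. Stat2, the factor with the smallest p, stood at 7.59 and 7.12 in mature and 9.08 and 8.36 in immature Sirpa-positive cells, against 10.9 and 11.3 in mature and 11.2 and 12.3 in immature Sirpa-negative cells. Its Sirpa-positive arrays all lay below its Sirpa-negative ones, by -0.60 ± 0.19 among mature cells (adjusted p = 0.147) and -0.43 ± 0.19 among immature cells (adjusted p = 0.213). Irf9, the DNA-binding partner, and Irf7, the factor that amplifies interferon genes, likewise did not pass. Over the 3 factors and the 4 comparisons the differences ran from -0.60 to 0.15.

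In the ISG15 system, Isg15, a ubiquitin-like protein that is attached to other proteins, stood at 25.8 and 23.5 in mature and 13.4 and 16.4 in immature Sirpa-positive cells, and at 22.1 and 24.3 in mature and 12.1 and 13.0 in immature Sirpa-negative cells. Its mature arrays lay above its immature arrays in both subsets, while the subsets overlapped among mature cells and lay close to each other among immature cells. The rise was 0.89 ± 0.20 in Sirpa-negative cells (1.85-fold, adjusted p = 0.0259), and the difference in Sirpa-positive cells was 0.73 ± 0.20 and did not pass (adjusted p = 0.0864). Herc6, the main ligase for Isg15 in mice, stood at 1.71 and 1.66 in mature and 1.15 and 1.25 in immature Sirpa-positive cells, against 1.75 and 1.62 in mature and 0.632 on the single measured array of immature Sirpa-negative cells. It rose 2.67-fold in Sirpa-negative maturation (1.41 ± 0.24, adjusted p = 0.0130), a value that rests on that lone array, which the fit assumes to vary as the other groups did, and was 0.39 in the authors' deposited values (adjusted p = 0.593). A second Herc6 probe, measured on all 8 arrays, stood at 0.715 and 0.727 in mature and 0.235 and 0.297 in immature Sirpa-negative cells, a difference of 1.45 ± 0.21 (adjusted p = 0.00573 with each probe tested singly). Usp18, which removes Isg15 and damps the receptor, differed by 0.86 ± 0.26 in the same comparison (adjusted p = 0.0642) and passed in none.

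Of the membrane factors, Ifitm3, which blocks virus entry from endosomes, stood at 63.0 and 83.2 in mature and 79.8 and 102 in immature Sirpa-positive cells, against 10.9 and 11.4 in mature and 7.42 and 8.85 in immature Sirpa-negative cells. Bst2 (tetherin, which holds virus particles at the surface) stood at 27.8 and 34.2 in mature and 32.2 and 32.2 in immature Sirpa-positive cells, against 18.0 and 21.7 in mature and 18.0 and 17.7 in immature Sirpa-negative cells. For both genes the subsets separated at each stage and the stages overlapped or lay close within a subset. Ifitm3 was 6.49-fold higher in mature Sirpa-positive than in mature Sirpa-negative cells (2.70 ± 0.24, adjusted p = 0.000975) and 11.2-fold higher in immature cells (3.48 ± 0.24, adjusted p = 0.000161). Bst2 was 1.80-fold higher in immature cells (0.85 ± 0.21, adjusted p = 0.0412) and differed by 0.64 ± 0.21 in mature cells (adjusted p = 0.161).

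Rtp4, a chaperone that brings receptors to the surface, stood at 32.4 and 27.3 in mature and 42.2 and 36.2 in immature Sirpa-positive cells, against 4.49 and 2.75 in mature and 0.809 and 0.671 in immature Sirpa-negative cells. The 4 groups did not overlap, and the order of the stages was opposite in the 2 subsets. Rtp4 rose 4.77-fold with maturation in Sirpa-negative cells (2.25 ± 0.28, adjusted p = 0.00288). In Sirpa-positive cells the maturation difference of Rtp4 was -0.39 ± 0.28 and did not pass (adjusted p = 0.521). Rtp4 was 8.47-fold higher in mature Sirpa-positive than in mature Sirpa-negative cells (3.08 ± 0.28, adjusted p = 0.0011) and 53.0-fold higher in immature cells (5.73 ± 0.28, adjusted p = 5.32e-05).

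Of the 9 other effectors, Rsad2 (viperin, which makes an antiviral nucleotide) stood at 12.6 and 12.1 in mature and 10.3 and 11.1 in immature Sirpa-positive cells, against 11.3 and 10.2 in mature and 3.87 and 3.68 in immature Sirpa-negative cells. The other groups lay close together and the Sirpa-negative immature arrays stood below them. Rsad2 rose 2.85-fold in Sirpa-negative maturation (1.51 ± 0.19, adjusted p = 0.00281) and was 2.82-fold higher in immature Sirpa-positive than in immature Sirpa-negative cells (1.497 ± 0.188, adjusted p = 0.00233), with 0.20 ± 0.19 among mature cells (adjusted p = 0.731). Samd9l, an antiviral factor that restrains cell growth, ran the other way, at 1.91 and 1.81 in mature and 3.596 and 3.51 in immature Sirpa-positive cells, against 4.99 and 3.90 in mature and 6.14 and 6.13 in immature Sirpa-negative cells. It was the only gene of the 31 that fell with maturation in Sirpa-positive cells, by 0.93 ± 0.20 on the log2 scale (adjusted p = 0.0394), and the only one called lower in Sirpa-positive cells, 2.37-fold among mature cells (-1.24 ± 0.20, adjusted p = 0.0143) and 1.73-fold among immature cells (-0.79 ± 0.20, adjusted p = 0.0487). The remaining 7 effectors passed in none: Cmpk2 (a mitochondrial nucleotide kinase), Isg20 (an exonuclease), Trim30a (a ubiquitin ligase), Xaf1 (a cell death factor), Ifi44, Ifi35 and Parp14 (an ADP-ribosyltransferase). Their differences ran from -0.81 (Trim30a) to 0.98 (Parp14), both among immature cells. A second Xaf1 probe gave -1.83 in Sirpa-negative maturation (adjusted p = 0.0311 with each probe tested singly), against 0.34 for the probe that stood for the gene. That second probe was dim and was well above background on 4 of the 8 arrays. It stood at 0.0333 and 0.0420 on the Sirpa-negative mature arrays, neither well above background, and at 0.212 and 0.0834 on the immature ones.

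**Figure D2:**
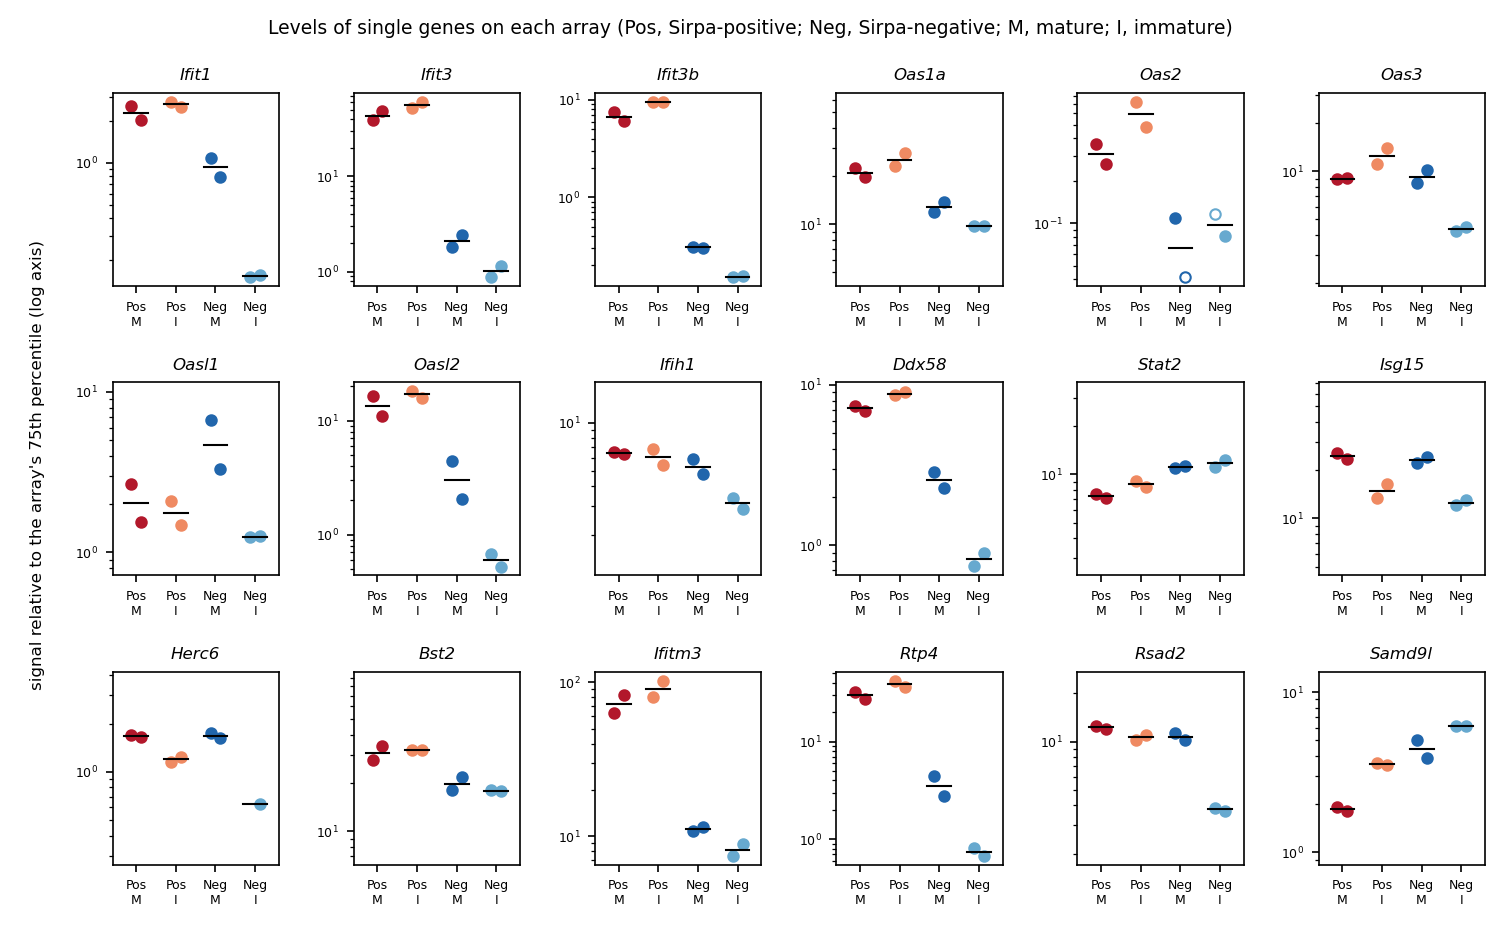
Level (multiples of the array's 75th percentile, log axis) of 18 of the genes, the 17 that passed in a comparison and Stat2, with 1 point per array (open where not well above background) and a bar at the mean of each group's log values. Ifit1, Ifit3, Ifit3b, Oas1a, Oas2, Oasl2, Ddx58, Ifitm3, Bst2 and Rtp4 keep the Sirpa-positive arrays above all Sirpa-negative arrays. Stat2 and Samd9l show the reverse order.

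Set by subset among immature cells, 13 of the 31 genes were higher in the Sirpa-positive than in the Sirpa-negative subset and 1 (Samd9l) was lower, where 7.23% of all features were called higher and 4.39% lower. The median difference of the 31 genes was 0.85, against -0.11 over all features, and the range ran to 5.95. By role, 3 of 4 IFIT genes, 4 of 5 OAS genes, 2 of 4 sensors and 3 of 3 membrane factors were higher, against 1 of 9 other effectors, and none (0) of the transcription factors or the ISG15 system passed in limma; 22 of the 31 genes had an unadjusted p under 0.05, where 24.6% of all features did. Of the 14 calls, 10 held in all 19 alternatives, and with the slide row as a block 11 were left, without Bst2 (adjusted p = 0.0736), Ifih1 (0.0699) and Samd9l (0.0965). Bst2, Ifih1 and Samd9l missed the threshold without any 1 of the 4 immature arrays (adjusted p = 0.0779 to 0.237), Ifih1 and Samd9l also without Sirpa-positive mature array 1 or 6 (0.0513 and 0.0672), and Oas2 without Sirpa-positive immature array 3 (0.100) or Sirpa-negative immature array 7 (0.0639).

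Among mature cells, 8 of the 31 genes were higher in the Sirpa-positive subset and 1 (Samd9l) was lower, where 3.38% of all features were called higher and 2.10% lower. The 8 were Ifit1, Ifit3, Ifit3b, Oas2, Oasl2, Ddx58, Ifitm3 and Rtp4. The median difference was 0.20, against -0.07 over all features. The calls of Ifit3, Ifit3b, Ifitm3 and Rtp4 held in all 19 alternatives. Without Sirpa-positive mature array 1 or 6, or without Sirpa-negative mature array 8, 5 calls were left in place of 9: Ifit1 and Oasl2 missed in each of the 3 cases (adjusted p = 0.0575 to 0.107), Ddx58 without array 8 (0.0526), Samd9l without Sirpa-positive mature array 1 or 6 or Sirpa-negative mature array 2 (0.0576 to 0.0811), and Oas2 without any array other than Sirpa-negative mature array 2 (0.0533 to 0.168) and with slide row as a block (0.0674).

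**Figure D3:**
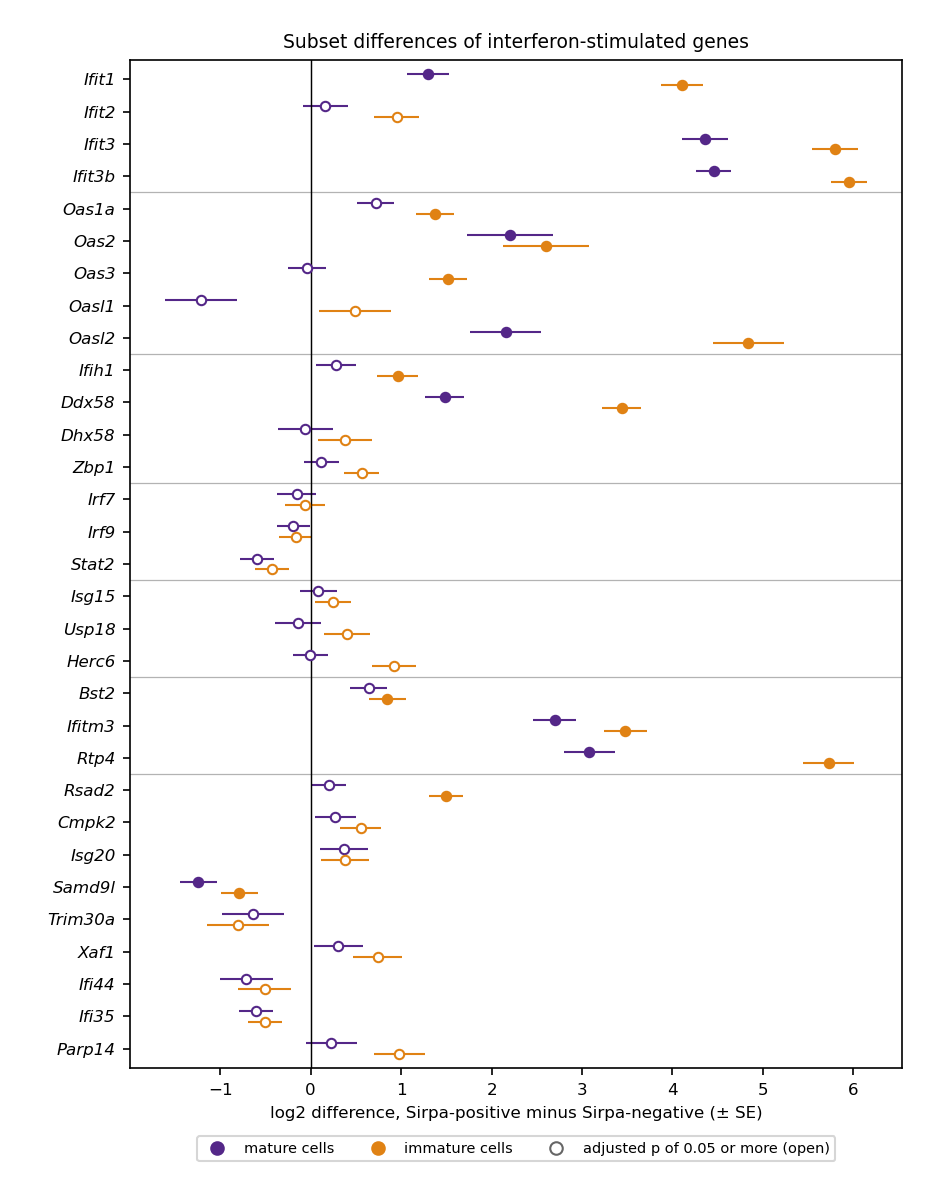
Log2 difference between Sirpa-positive and Sirpa-negative cells (x axis, ± SE) for each of the 31 genes, among mature and among immature cells; open symbols did not pass the threshold of 0.05. The differences reach 5.95 among immature and 4.45 among mature cells, both for Ifit3b. They lie below 0 at both stages for Samd9l, Trim30a, Ifi44, Ifi35 and the transcription factors.

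Markers of macrophages and monocytes moved with the subset comparisons: 8 of the 11 tested were higher in Sirpa-positive cells among mature cells and 11 of 11 among immature cells. Their summed level was 381 to 396 on the Sirpa-positive mature arrays and 475 to 616 on the Sirpa-positive immature arrays, against 16.5 to 18.8 on the Sirpa-negative mature arrays and 14.7 to 15.9 on the Sirpa-negative immature arrays. C1qc was not above background in either Sirpa-negative group, nor Mertk in the immature one. Of 13 plasmacytoid dendritic cell markers, Bst2 among them, 5 were higher and 0 lower in Sirpa-positive mature cells and 6 higher and 1 lower in Sirpa-positive immature cells; Siglech, which defines those cells, passed in neither (mature -0.13 ± 0.24, adjusted p = 0.883; immature -0.34 ± 0.24, adjusted p = 0.436). Their summed level overlapped between subsets at the immature stage, with 137 to 169 in Sirpa-positive and 124 to 132 in Sirpa-negative mature cells and 130 to 134 in Sirpa-positive and 115 to 135 in Sirpa-negative immature cells. The part of these cell types in the differences was not tested.

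With maturation in Sirpa-negative cells, 11 of the 31 genes rose, where 9.23% of all features rose and 7.24% fell. They were Ifit1, Ifit3, Ifit3b, Oas3, Oasl1, Oasl2, Ddx58, Isg15, Herc6, Rtp4 and Rsad2. None (0) of the 31 genes fell in the limma fit, while 16 had an unadjusted p under 0.05 in either direction, where 29.8% of all features did. The median difference was 0.46, against -0.01 over all features, and 23 of the 31 lay above 0, where 49.2% of all features did. Ifit1, Ddx58, Oasl2, Rsad2 and Rtp4 passed in all 19 alternatives, and with slide row as a block Ifit3 (adjusted p = 0.0614) and Isg15 (0.0539) missed. Without immature array 7 the 11 rises became 5, and without immature array 4 or mature array 2 they became 6; Ifit3, Isg15 and Oas3 missed without mature array 8 (adjusted p = 0.121, 0.0868 and 0.0619), and Ifit3 without Sirpa-positive immature array 3 or 5 (0.0592).

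In Sirpa-positive maturation none (0) of the 31 genes rose in the limma fit and Samd9l alone fell, where 4.35% of all features rose and 2.54% fell. At an unadjusted p under 0.05 there were 5 genes, or 16.1%, where 20.2% of all features passed. The median difference was -0.25, against 0.03 over all features, and 22 of the 31 lay below 0, where 47.3% of all features did. The differences ran from -0.94 (Oas2) to 0.73 (Isg15). The fall of Samd9l missed the threshold without any 1 of the 4 Sirpa-positive arrays or the 2 Sirpa-negative immature arrays (adjusted p = 0.066 to 0.200), and with slide row as a block (0.0827).

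**Figure D4:**
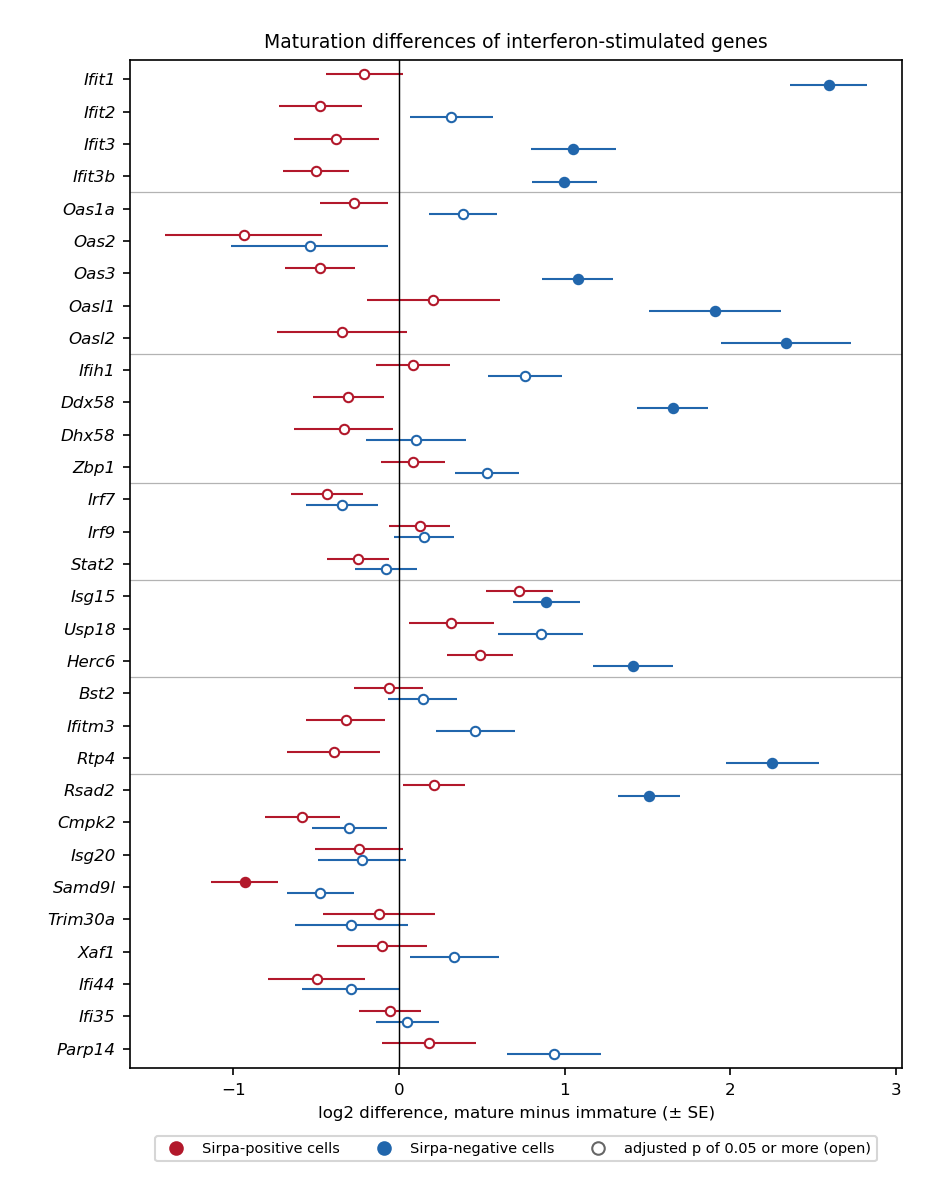
Log2 difference between mature and immature cells (x axis, ± SE) for each of the 31 genes in Sirpa-positive and in Sirpa-negative cells; filled symbols passed the threshold of 0.05. The Sirpa-negative differences reach 2.59 for Ifit1, while the Sirpa-positive ones stay between -0.94 and 0.73.

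Whether the 2 subsets differed in their maturation effect was tested directly, as the Sirpa-positive effect minus the Sirpa-negative effect. None (0) of the 31 genes passed in limma, nor did any feature (0% of all), while 10 of the 31 had an unadjusted p under 0.05, where 8.06% of all features did. Ifit1 had the smallest adjusted p, with a difference of -2.80 ± 0.33 (0.0688), followed by Rtp4 with -2.65 ± 0.40 (0.0867) and Ddx58 with -1.96 ± 0.30 (0.093). The median was -0.54, against 0.02 over all features, and 30 of the 31 genes lay below 0, where 47.9% of all features did; the exception was Trim30a at 0.17 ± 0.48. Marker genes of some other cell types lay below 0 here as well: 16 of 16 thymocyte and T cell markers (median -0.58), 10 of 11 macrophage and monocyte markers (median -1.46) and 5 of 6 thymic epithelial markers (median -0.49). Other marker lists leaned the other way. Above 0 lay 4 of 6 B cell markers (median 0.31), 7 of 13 plasmacytoid dendritic cell markers (median 0.20) and 10 of 14 dendritic cell markers (median 0.30). The part of these cell types in the result was not tested. In 6 genes, Ddx58, Ifit3, Ifit3b, Oas1a, Oas3 and Rtp4, both mature arrays lay below both immature arrays in Sirpa-positive cells and above both in Sirpa-negative cells, a pattern shown by 1.73% of all features. The opposite pattern was shown by 0 of the 31 genes and by 1.46% of all features. The number that passed the direct test changed in some alternatives. Over all 24148 features it was 168 with normexp background correction and quantile normalization, 148 with the authors' deposited values and 186 with trended and robust variances. With probes above background on all 8 arrays it was 101 of 18990 features. With normexp background correction and quantile normalization 6 genes passed, with the authors' deposited values 6, with probes above background on all 8 arrays 3, and with trended and robust variances 7; Ifit1, Ddx58 and Rtp4 passed in each of these 4 settings, and none (0) passed when any 1 array was left out.

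Thymocyte and T cell markers rose with maturation too: 5 of 16 in Sirpa-positive cells and 12 of 16 in Sirpa-negative cells. Their summed level was 56.5 to 61.1 on the Sirpa-positive mature arrays and 42.5 to 48.2 on the Sirpa-positive immature arrays, and 51.9 to 59.0 on the Sirpa-negative mature arrays and 16.01 to 16.6 on the Sirpa-negative immature arrays. Rag2 was not above background on the Sirpa-positive immature arrays. Of 11 macrophage and monocyte markers, whose summed levels are given above, 11 lay below 0 in Sirpa-positive maturation (median -0.71, 1 of them called) and 7 above 0 in Sirpa-negative maturation (median 0.39, 2 risen and 1 fallen). The summed level of 6 thymic epithelial markers was 5.74 to 6.71 in mature and 9.03 to 13.8 in immature Sirpa-positive cells, and 6.16 to 7.31 in mature and 2.93 to 3.78 in immature Sirpa-negative cells. That of 6 B cell markers was 7.63 to 7.88 in mature and 4.89 to 5.02 in immature Sirpa-positive cells, and 2.38 to 2.93 in mature and 1.76 to 2.73 in immature Sirpa-negative cells. Their part in the maturation differences was not tested.

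Upstream of the 31 genes, few of the interferons themselves were detected. Of 17 type I and III interferon genes 13 were matched, and only Ifna1, Ifna12 and Ifnl3 had a probe above background on both arrays of a group. Ifna12 and Ifnl3 each had a probe above it on all 8 arrays, and Ifna1 on 7. A second Ifna12 probe was above it on 0 of the 8 arrays, and a second Ifnl3 probe on 6. The Ifna12 probe above background was dim, at 0.120 to 0.203. Ifnb1 was above background on 1 of 8 arrays. None (0) of Ifna1, Ifna12 and Ifnl3 passed in the 4 comparisons in limma. Of 10 genes of the receptors and their proximal signalling, Ifnar2, the ligand-binding receptor chain, was 2.41-fold higher in immature Sirpa-positive than in immature Sirpa-negative cells (1.27 ± 0.27, adjusted p = 0.0252), as was Il10rb, a chain of the type III receptor (2.40-fold). Tyk2, a kinase of the receptor, was 2.07-fold lower in the same comparison, and these were its 3 calls. In Sirpa-positive maturation only Tyk2 of the 10 rose (0.998 ± 0.219, adjusted p = 0.0405), and in Sirpa-negative maturation Il10rb and Jak2 rose and Ifngr1, a chain of the interferon-gamma receptor, fell 2.53-fold. Among mature cells Ifnlr1, the other chain of the type III receptor, was 1.99-fold lower in the Sirpa-positive subset, and 0 of the 10 were higher.

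Of 19 genes on the paths that induce interferon, Irf1, a transcription factor, rose with maturation 3.76-fold in Sirpa-positive cells and 7.19-fold in Sirpa-negative cells. Tlr7, an endosomal receptor for single-stranded RNA, was higher in the Sirpa-positive than in the Sirpa-negative subset, 4.18-fold among mature and 7.86-fold among immature cells, and Sting1, an adaptor of DNA sensing, 2.13-fold and 3.29-fold at those stages. Tlr3, the endosomal receptor for double-stranded RNA, was 15.0-fold lower in immature Sirpa-positive than in immature Sirpa-negative cells and fell 11.9-fold with maturation in Sirpa-negative cells. In all, 2 of the 19 rose and 0 fell in Sirpa-positive maturation, 4 rose and 3 fell in Sirpa-negative maturation, 3 were higher and 0 lower in Sirpa-positive mature cells, and 3 were higher and 2 lower in Sirpa-positive immature cells. Of 15 negative regulators, Socs3, an inhibitor of cytokine receptor kinases, was 4.59-fold higher in Sirpa-positive mature cells and 8.13-fold higher in Sirpa-positive immature cells than in their Sirpa-negative counterparts. Of these 15 genes 0 passed in Sirpa-positive maturation, 3 rose and 1 fell in Sirpa-negative maturation, and 1 was higher among mature and 2 among immature cells of the Sirpa-positive subset, with 0 lower.

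Other genes known to respond to interferons were counted in the same way. These counts, and those of the pathway lists above, were not tested against the shares of all features. Those shares were 4.35% risen and 2.54% fallen in Sirpa-positive maturation, and 9.23% risen and 7.24% fallen in Sirpa-negative maturation. In the Sirpa-positive subset 3.38% were higher and 2.1% lower among mature cells, and 7.23% higher and 4.39% lower among immature cells. Of 47 further interferon-stimulated genes tested, 7 were higher and 1 lower in Sirpa-positive mature cells, and 13 were higher and 1 lower in Sirpa-positive immature cells. Pml, which builds nuclear bodies, was the gene that was lower, 1.84-fold in Sirpa-positive mature cells and 2.19-fold in Sirpa-positive immature cells. With maturation 1 of the 47 rose (Epsti1, 5.39-fold) and 1 fell (Gm4951) in Sirpa-positive cells, and 6 rose and 0 fell in Sirpa-negative cells, led by Epsti1 (16.4-fold) and Ifitm2 (7.03-fold), a relative of Ifitm3. Of 23 genes best known as interferon-gamma targets, 6 rose and 0 fell in Sirpa-positive maturation and 8 rose and 0 fell in Sirpa-negative maturation. Gbp2, a GTPase of host defence, was among them at 4.47-fold and 38.5-fold. By subset, 2 of the 23 were higher and 1 lower in Sirpa-positive mature cells and 5 higher and 4 lower in Sirpa-positive immature cells; Gbp7 was 9.57-fold and 33.6-fold higher, and Psmb9, a subunit of the immunoproteasome, was 3.16-fold lower among immature cells.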

How the data were processed

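RNA of sorted thymic dendritic cells was hybridised to 8 Agilent arrays with Cy3, 2 per group. The deposited scanner files hold spot intensity: per the file headers, Feature Extraction 10.7.3.1 made the background-subtracted processed signal, whereas the submitters' processing notes give 10.5. The authors' deposited value table is on the log2 scale with quantile-normalised columns, and limma is named for it in the submitters' processing notes.

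The 75th percentile of each array was subtracted from log2 of the processed signal. Control and outlier spots were left out and spots of a probe averaged. A probe was kept if some group had it well above background on both its arrays (33689 of 55681), and the brightest probe stood for a gene. Symbols came from RefSeq (GRCm38.p6) by accession, for 26582 probes. One limma model (3.58.1, R 4.3.3) with 4 group means gave all tests, two-sided, adjusted over 24148 features, and was tested on simulated data. Its normexp alternative used the median spot signal (offset 50), since the files have no mean signal. Genes were described array by array where they passed in a comparison, with the smallest-p gene of a role without one, and other pathway genes by the smallest p, up to 2 per direction. The members and all lists were chosen with earlier results of these data known. The number of arrays limits the precision. Some genes of the pathway lists are not reported here.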

Additional observations from a re-analysis of the deposited data

How the results depend on the processing

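Alternatives covered the background correction, the normalization, the filter on dim probes, the probe that stands for a gene, the slide row, the variance estimate, the groups in the fit and each array left out. No paired analysis was possible because no replicate number is shared between groups; the slide row, which holds 1 array of each group, was run as a block. For the 35 called results of the 4 comparisons, taken over the alternatives, 558 values kept direction and side of the threshold, 104 kept direction only and 0 reversed. Genes called in no comparison were not tallied. In the difference between the maturation effects, for the 17 genes called elsewhere, 280 values kept both, 22 newly passed and 2 reversed: Herc6 was 0.13 with the authors' deposited values and Oas2 was 0.30 without Sirpa-negative mature replicate 2 (-1.10 to 0.30 over the arrays left out). The cause of these changes was not tested. The count of called genes in Sirpa-positive maturation was 1, against 3 with normexp and quantile normalization, 2 with trended and robust variances, and 0 with no filter on dim probes, with slide row as a block, and with only the groups of the comparison; leaving out arrays gave 0 to 1. In Sirpa-negative maturation it was 11, against 5 with no filter and 6 with only the groups of the comparison, and 5 to 11 with arrays left out. Among mature cells it was 9, against 5 with no filter and 5 with only those groups, and 5 to 8 with arrays left out. Among immature cells it was 14 and stayed within 1.5 times throughout (10 to 17). In the difference between the maturation effects it was 0, against 6 with normexp, 6 with the authors' values, 3 with probes above background on all 8 arrays and 7 with trended and robust variances. Over all features 168, 148, 101 and 186 passed in these settings, against 0 in the main fit. The median of the 31 genes in this difference was -0.54, and -0.74 to -0.42 with arrays left out. With no filter, 430 of all features passed in Sirpa-positive maturation in place of 1664, 1615 in Sirpa-negative maturation in place of 3977, 579 among mature cells in place of 1322 and 1557 among immature cells in place of 2806. Median scaling moved the median of all features in Sirpa-negative maturation to -0.12, against -0.01, and in Sirpa-positive maturation to -0.07, against 0.03. All 35 calls had groups that did not overlap, which a call with 2 arrays per group nearly brings with it. Groups that do not overlap must have the same direction in both rows of the slide, as 34 calls did. Neither count is thus separate support for the calls. Herc6 had no value in 1 row. For 13 calls there was another kept probe of the gene, and 12 of these had the same direction and 7 also passed.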
